A study of Mus musculus with 4 samples.

Results

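Kcnj8 and Abcc9 encode the subunits of the vascular ATP-sensitive potassium (KATP) channel, and they are 2 of the 32286 genes listed for the libraries. They were taken by name from the gene symbols of the deposited matrices. Their levels and their joint presence in single cells were followed through pericyte-like cells, 3 kinds of muscle-like cells and the other marker-defined cells of popliteal vessels from adult mice. The study profiled cells by droplet single-cell RNA sequencing, which counts unique molecular identifiers (UMIs, 1 per captured RNA molecule) at the 3′ ends of transcripts.

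All libraries came from mice that carried the same pair of alleles, a Wt1 GFP-Cre knock-in and the Ai9 tdTomato reporter, so no group lacks either allele. Evans blue had been injected into the footpad to make the lymphatic vessels visible, and each library pooled 2 mice. The 2 libraries of popliteal lymphatic vessel (PLV) were digested for 30 min in collagenase I and Dispase II with Liberase and DNase. The third, called mixed here, joined lymphatic vessel cells and blood vessel cells marked with hashtag antibodies and was digested for 60 min in collagenase I and Dispase II only. Its hashtag counts did not separate the vessels, so the mixed library was treated as 1 sample, and vessel, digestion, run and mice cannot be told apart between it and the PLV libraries.

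The vascular KATP channel is built of pore subunits with regulatory subunits around them. Kcnj8 encodes Kir6.1, the inward rectifier that forms the pore. Abcc9 encodes SUR2, the sulphonylurea receptor that senses nucleotides. The channel closes with ATP and opens with magnesium-bound ADP. In vascular and lymphatic muscle its opening hyperpolarises the membrane, lowers calcium entry and slows or stops contraction. Both genes are also widely used to recognise capillary pericytes, so neither was used here to cluster cells or to name them.

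After filtering, PLV replicate 1 kept 1909 cells with 9577642 UMIs, PLV replicate 2 kept 516 with 3390010 and mixed kept 994 with 7770796. Values are given in this order throughout. The median cell held 3372, 4886.5 and 6162 UMIs. No cell barcode was shared between libraries. Kcnj8 gave 614 UMIs over the 3419 cells and Abcc9 gave 2083. Clusters were named by markers, and every name means a likeness. The pericyte-like class held 136, 27 and 59 cells and had 7336, 9884 and 5931 CPM (UMIs of a gene per 1000000 UMIs of the class) of its 9 markers summed. The muscle-like class held 427, 110 and 316 cells. By markers it split into a kind marked by Ano1 (the calcium-activated chloride channel anoctamin 1), a kind marked by Pln (phospholamban, the regulator of the calcium store pump) and, in the mixed library alone, a kind marked by P2rx1 (a purinergic receptor). None of these kinds was assigned to a vessel by the labels.

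The pericyte-like cluster of PLV replicate 1 was uneven, and its values are therefore given in both forms. In it, 5 of 136 cells carried keratinocyte markers and held 142612 of its 482688 UMIs, with 0 UMIs of either gene. Without these cells its Kcnj8 level was 121 in place of 84.9 CPM, and its Abcc9 level was 459 in place of 323 CPM. At a finer clustering of all cells of that library, its pericyte-like clusters were 42 cells led by Dlk1, Rgs5 and Adra2a and 81 shallower cells led by Lgals3 and Ndufa4l2. The first held 183 CPM of Kcnj8 and 766 of Abcc9, and the second 20.3 and 40.6. The second held 295548 UMIs in all, and its levels were not computed without the 5 keratinocyte-marked cells, whose place among the finer clusters was not looked at. In mixed the finer pericyte-like clusters were 38 cells led by Rgs5 and Dlk1 (204 and 355 CPM) and 24 cells led by Nrip2 and Tbx2, genes also among the leading ones of a Pln cluster in PLV replicate 1 (22.5 and 82.3 CPM). PLV replicate 2 had 1 such cluster, of 36 cells (130 and 408 CPM). These clusters do not hold exactly the cells of the coarser ones, and in 2 of 3 libraries both genes differed several-fold between them.

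The genes are neighbours on mouse chromosome 6 (GRCm38). Kcnj8 (ENSMUSG00000030247) spans chr6:142564837-142571614 on the minus strand, with 2 annotated transcripts and up to 3 exons. Abcc9 (ENSMUSG00000030249) spans chr6:142587862-142702315 on the same strand, with 6 transcripts and up to 41 exons. Kcnj8 therefore lies downstream of Abcc9, and the 16247 bases between them hold no other gene of the libraries' gene list. An antisense gene inside Abcc9, 5330439B14Rik, had 0 UMIs in every library.

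The start regions are shown because the genes are adjacent and their levels across cell classes were alike, though not in every step. Both are from RefSeq on GRCm38.p6, 5′ to 3′ on the minus strand. The first is the whole window of 250 bases before the start of Kcnj8, chr6:142571615-142571864, with its only E-box (CANNTG, the core of basic helix-loop-helix sites) in capitals, 160 bases before the start. The other is a stretch of 28 bases before this Abcc9 start, chr6:142702478-142702505. Its capitals mark the overlap of TGGGAA (the RBPJ core) and GGAATG (the TEAD core), 221 bases before the start that the RefSeq table gives. RefSeq's Abcc9 gene reaches beyond that start, so other starts exist and the stretch may lie inside the gene.

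Kcnj8 upstream window: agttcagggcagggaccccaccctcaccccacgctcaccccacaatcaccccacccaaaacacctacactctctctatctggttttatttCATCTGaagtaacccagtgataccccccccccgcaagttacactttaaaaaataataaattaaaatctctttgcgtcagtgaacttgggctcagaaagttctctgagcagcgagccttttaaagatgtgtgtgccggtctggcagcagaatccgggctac

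Abcc9 upstream site: tggtcctgaaTGGGAATGgccggagtga

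Over 32851 windows of 250 bases, searched on both strands, CANNTG was present in 66.2%, TGGGAA in 21.6% and GGAATG in 12.6%. GGGCGG (the SP1 core) was present in 32.7% of windows, in that of Abcc9 and not in that of Kcnj8. TGACGTCA (the cAMP response element), TGTTTAC (a forkhead site), TATAAA and the CArG box were found in neither window, against 1.55%, 3.17%, 12.4% and 1.47% of all windows. The Kcnj8 window was 49.2% G or C and that of Abcc9 66.8%, with a median over all windows of 52.4%. Except for the E-box, present once in each, no motif searched was shared by the windows, and these matches are descriptions of sequence only.

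Pericyte-like cells had the highest Kcnj8 level by the mean over libraries. Kcnj8, the pore, stood at 84.9, 180 and 141 CPM in pericyte-like cells of PLV replicate 1, PLV replicate 2 and mixed (135 ± 47.7, SD, n = 3 libraries). In the Ano1 kind of muscle it stood at 44.5, 40.3 and 33.3 CPM (39.4 ± 5.63, SD, n = 3) and in the Pln kind at 15.4, 6.51 and 9.61 CPM (10.5 ± 4.52, SD, n = 3). The 3 ranges did not overlap. Sums per library and class were compared with edgeR's quasi-likelihood test with the library as a block, and p-values were adjusted by Benjamini-Hochberg over all genes tested. Because the classes came from clustering cells on their expression, these p-values compare the libraries' sums under that naming, although the members took no part in it.

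By this test the log2 difference of Kcnj8 between pericyte-like cells and the Ano1 kind was 1.69 (SE 0.27, edgeR adjusted p = 4.71e-05), where 10.3% of all genes tested were called higher. It was higher than in the Pln kind by 3.13 (SE 0.34, edgeR adjusted p = 1.15e-07), where 12.3% of all genes were, and by 4.16 without PLV replicate 1. Within muscle, the Ano1 kind exceeded the Pln kind by 1.59 (SE 0.36, edgeR adjusted p = 0.000269), a comparison with 16.1% of genes called higher and 16.8% lower. Pericyte-like cells, the Ano1 kind and the Pln kind thus formed a falling order for the pore subunit, and each step was larger than the spread between libraries. The P2rx1 kind, found in 1 library, stood at 46.0 CPM (95% Poisson interval 32.5 to 63.1, counting error only), near the Ano1 kind, and has no replicate.

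Abcc9, the regulatory subunit, did not follow the same steps. It stood at 323, 564 and 261 CPM in pericyte-like cells (383 ± 160, SD, n = 3) and at 416, 313 and 224 CPM in the Ano1 kind (318 ± 95.7, SD, n = 3), ranges that overlapped. In PLV replicate 1 Abcc9 was higher in the Ano1 kind with all pericyte-like cells counted, and lower once the 5 keratinocyte-marked cells were left out. The difference was 0.19 on the log2 scale (95% interval -0.19 to 0.56, edgeR adjusted p = 0.576), which does not show that the levels were the same. In the Pln kind Abcc9 stood at 50.3, 54.2 and 28.8 CPM, below every value of the other classes just named. Pericyte-like cells exceeded the Pln kind by 2.86 (SE 0.23, edgeR adjusted p = 1.78e-09) and the Ano1 kind exceeded it by 2.71 (SE 0.20, edgeR adjusted p = 2.92e-17). The P2rx1 kind stood between, at 160 CPM (134 to 189).

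**Figure D1:**
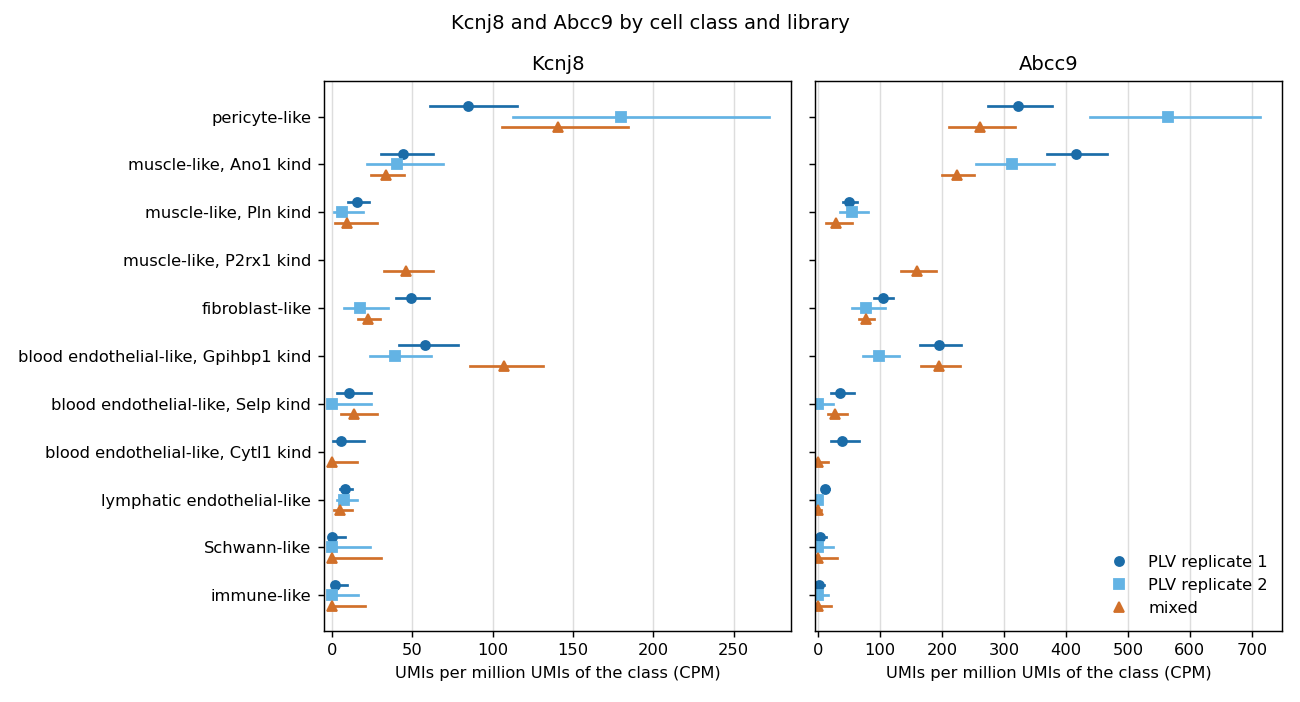
Levels of Kcnj8 and Abcc9 in CPM (linear axes, a scale for each gene) in each cell class and kind, 1 point per library with its 95% Poisson interval. For Kcnj8 the pericyte-like points, 84.9 to 180 CPM, sit above the Ano1 kind at 33.3 to 44.5 CPM, whereas for Abcc9 these groups overlap.

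With all muscle kinds summed, Kcnj8 was at 24.9, 20.4 and 34.6 CPM and Abcc9 at 169, 161 and 178 CPM. Kcnj8 was higher in pericyte-like cells than in this class by 2.01 (SE 0.34, edgeR adjusted p = 0.000538), and 5.47% of all genes were called higher and 6.96% lower. Abcc9 differed by 0.90 (SE 0.35, edgeR adjusted p = 0.102), which missed the threshold of 0.05. That call turned on the setting: without the mixed library the difference was 1.20 (edgeR adjusted p = 0.00555), and without the keratinocyte-marked cells it was 1.02 (edgeR adjusted p = 0.0472). The muscle-like class joins kinds whose Abcc9 levels differed as given above, in proportions that differed between libraries (140 cells of the Ano1 kind and 287 of the Pln kind in PLV replicate 1, 57 and 53 in PLV replicate 2, 199 and 43 in mixed).

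**Figure D2:**
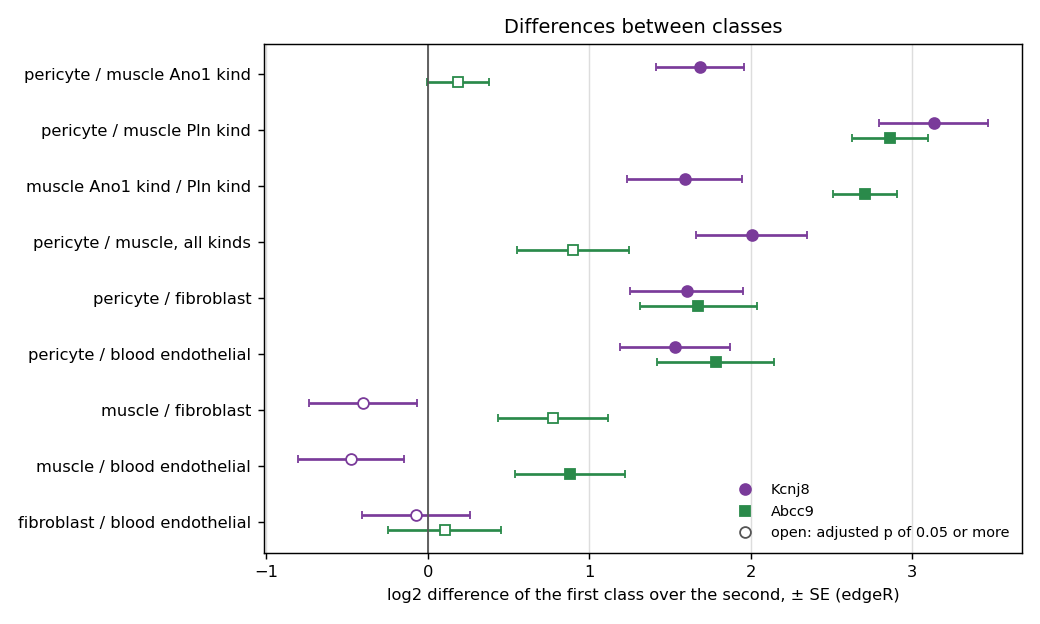
Differences of Kcnj8 and Abcc9 on the log2 scale between classes, with bars of 1 standard error from edgeR and open symbols where the adjusted p was 0.05 or more. Both genes lie right of 0 for the Ano1 kind over the Pln kind (1.59 and 2.71), and for pericyte-like cells over the Ano1 kind Kcnj8 is at 1.69 and Abcc9 at 0.19.

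Fibroblast-like cells, which are not contractile, also held both subunits. Kcnj8 stood at 49.2, 17.7 and 22.2 CPM there and Abcc9 at 105, 77.6 and 77.1 CPM. Pericyte-like cells exceeded them by 1.60 for Kcnj8 (SE 0.35, edgeR adjusted p = 0.00169) and by 1.68 for Abcc9 (SE 0.36, edgeR adjusted p = 0.00133), with 10.2% of genes called higher. The Kcnj8 difference was 2.42 without PLV replicate 1 and 1.29 without PLV replicate 2 (edgeR adjusted p = 0.0481). Between muscle-like and fibroblast-like cells neither gene was called: the differences were -0.40 for Kcnj8 (SE 0.33, edgeR adjusted p = 0.386) and 0.78 for Abcc9 (SE 0.34, edgeR adjusted p = 0.0823), against 17.3% of genes called higher and 20.2% lower. Abcc9 passed when these classes were fitted alone (0.79, edgeR adjusted p = 0.0177). With the libraries summed, the level of either gene in fibroblast-like cells did not rise with pericyte marker UMIs. In 291 cells without any of the 9 markers Kcnj8 was at 41.5 and Abcc9 at 84.7 CPM, and in 167 cells with 3 to 9 marker UMIs they were at 26.1 and 86.8 CPM. By library the direction varied for Kcnj8. Between cells without and with marker UMIs it went from 53.1 to 46.0 CPM in PLV replicate 1, from 41.9 to 11.2 in PLV replicate 2 and from 7.03 to 24.6 in mixed. Abcc9 went from 93.2 to 115, from 83.8 to 75.9 and from 59.7 to 79.8 CPM. Summed pericyte markers were at 200, 386 and 343 CPM in this class, with Higd1b at 0 in all 3 libraries.

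Single fibroblast-like clusters of PLV replicate 1 differed in the balance of the subunits, a split looked at after its values were seen. In clusters led by Inmt, Cxcl14 and Mmp3, Abcc9 was at 165 CPM against 21.8 for Kcnj8 in PLV replicate 1 and at 96.6 against 12.1 in PLV replicate 2. In clusters led by Smpd3, Mrgprg and Pi16 or Col14a1, it was at 53.8 against 56.6 and at 38.3 against 51.1. Abcc9 thus made up 88.3% (95% Clopper-Pearson interval 79.0 to 94.5) and 88.9% (73.9 to 96.9) of both genes' UMIs in the former and 48.7% (37.2 to 60.3) and 42.9% (9.90 to 81.6) in the latter. The intervals were apart in PLV replicate 1 and overlapped in PLV replicate 2, where the latter rests on 7 UMIs. In mixed, a cluster led by Cxcl14 and C4b gave 87.7% (76.3 to 94.9) and one led by Sfrp2 and Sfrp4, with Pi16 among its leading genes, 77.5% (61.5 to 89.2), which overlapped, so the split was not seen there. Clusters led by Apod and Smoc2, 41 and 14 cells, held 0 Kcnj8 UMIs and 1 Abcc9 UMI between them.

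Blood endothelial-like cells had Kcnj8 at 31.1, 30.1 and 60.3 CPM and Abcc9 at 110, 74.4 and 111 CPM, close to the fibroblast-like levels. Pericyte-like cells exceeded them by 1.53 for Kcnj8 (SE 0.34, edgeR adjusted p = 0.00209) and 1.78 for Abcc9 (SE 0.36, edgeR adjusted p = 0.000708), with 11.7% of genes called higher. For Kcnj8 this was lost without PLV replicate 2 (1.26, edgeR adjusted p = 0.0537). Muscle-like cells exceeded them in Abcc9 by 0.88 (SE 0.34, edgeR adjusted p = 0.0437) and Kcnj8 was not called (-0.47, SE 0.33, edgeR adjusted p = 0.279), with 21.1% of genes called higher. The Abcc9 call was lost under 6 of 14 alternatives. Fibroblast-like and blood endothelial-like cells differed by -0.07 and 0.11 (edgeR adjusted p = 0.91 and 0.862), against 19.5% of genes called higher and 16.4% lower.

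Most of the endothelial signal came from 1 kind of cluster and, within it, from a minority of cells. The kind marked by Gpihbp1, the capillary lipoprotein lipase anchor, held Kcnj8 at 58.0, 39.5 and 107 CPM and Abcc9 at 195, 97.7 and 195 CPM. The kind marked by Selp, the venous adhesion receptor P-selectin, held 10.5, 0 and 13.7 CPM of Kcnj8 and 35.6, 0 and 27.4 CPM of Abcc9. The kind marked by Cytl1, found in PLV replicate 1 and mixed, held 5.57 and 0 CPM of Kcnj8 and 39.0 and 0 CPM of Abcc9. Pericyte-like cells exceeded the Gpihbp1 kind alone by 0.83 for Kcnj8 (SE 0.29, edgeR adjusted p = 0.0458) and 1.09 for Abcc9 (SE 0.30, edgeR adjusted p = 0.0136), where 12.6% of genes were called higher. Its 275 cells were then split by their UMIs of the 9 pericyte markers, a split chosen after its values were seen. All 148 Kcnj8 UMIs and 334 of 346 Abcc9 UMIs lay in the 71 cells with 10 or more marker UMIs, at 140 and 316 CPM, the levels of pericyte-like cells. The 107 cells with no marker UMI held 0 UMIs of either gene in 333117 UMIs, which allows up to 9.01 CPM. Pecam1, the endothelial adhesion molecule, was at 1013 CPM in the former and 1408 CPM in the latter. The 71 cells, of which 45 had both subunits, thus held, as a group, transcripts of endothelium beside the pericyte markers they were picked by. They were also deeper, with a mean of 14877 UMIs a cell against 3113. Few doublets were called (10, 3 and 3 cells, already left out), and the part of joined cells in this signal was not tested.

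**Figure D3:**
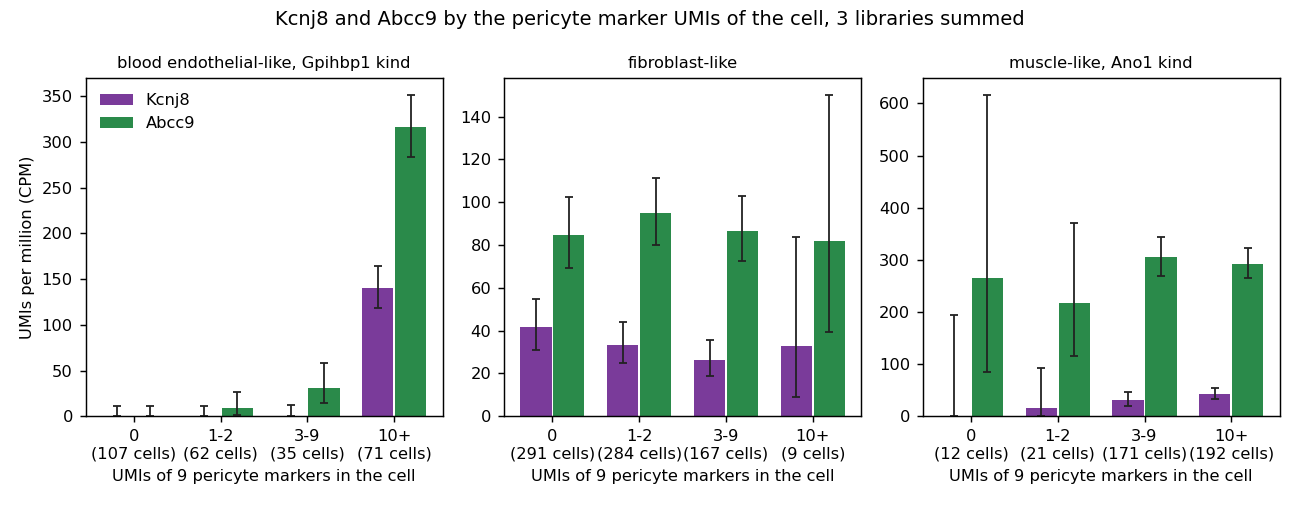
Kcnj8 and Abcc9 in CPM (bars, with 95% Poisson intervals) in cells grouped by their UMIs of the 9 pericyte markers, for the Gpihbp1 kind, fibroblast-like cells and the Ano1 kind with the libraries summed. In the Gpihbp1 kind both genes are at 0 in cells with no marker UMI and at 140 and 316 CPM from 10 marker UMIs up. In fibroblast-like cells with 0 and with 3 to 9 marker UMIs, Kcnj8 is at 41.5 and 26.1 CPM and Abcc9 at 84.7 and 86.8 CPM.

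In the Ano1 kind the same split behaved otherwise for the regulatory subunit. Abcc9 was at 264 CPM in 12 cells with no pericyte marker UMI, at 217 in 21 cells with 1 or 2, at 305 in 171 cells with 3 to 9 and at 293 in 192 cells with more. The Abcc9 level of 264 CPM rests on 5 UMIs. Kcnj8 was at 0, 16.7, 31.6 and 42.5 CPM in these cells. Its values of 0 and 16.7 CPM rest on 0 and 1 UMI and lie under their floors (3 counts) of 159 and 50.1 CPM. The Poisson intervals of the values 31.6 and 42.5 CPM overlapped (20.6 to 46.2 and 32.6 to 54.5 CPM). These values therefore do not show whether Kcnj8 rose with marker UMIs in the Ano1 kind. Muscle expresses several of the pericyte markers itself, and their sum was 2639, 2100 and 1358 CPM in the Ano1 kind and 3146, 2931 and 1612 CPM in the Pln kind. The marker sum was lower in the Ano1 kind than in the Pln kind in each library, while Abcc9 was higher there.

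Other classes held little of either gene. Lymphatic endothelial-like cells held Kcnj8 at 7.88, 7.49 and 4.83 CPM and Abcc9 at 11.4, 0 and 0 CPM, and 23 of the 26 Abcc9 UMIs lay in 10 cells with 10 or more pericyte marker UMIs. Kcnj8 was not gathered there. With the libraries summed it was at 6.90, 9.43 and 7.03 CPM in cells with 0, 1 or 2, and 3 to 9 marker UMIs, and at 4.34 CPM in those 10 cells. Pericyte-like cells exceeded lymphatic endothelial-like cells by 4.01 for Kcnj8 (edgeR adjusted p = 2.7e-07) and 5.93 for Abcc9 (edgeR adjusted p = 4.64e-09), with 14.3% of genes called higher. Muscle-like cells exceeded lymphatic endothelial-like cells by 2.01 for Kcnj8 (edgeR adjusted p = 0.000459) and 5.03 for Abcc9 (edgeR adjusted p = 1.13e-08), with 22.1% called higher. Abcc9 was at 0 in 2 of the 3 lymphatic endothelial-like sums, so the size of both Abcc9 differences rests on PLV replicate 1. Without it the fit gave 10.98 and 9.97 against sums of 0, which are no measure of size. The lining cells of the lymphatic vessels thus held little of either transcript. Schwann-like cells had 0 Kcnj8 UMIs and 1 Abcc9 UMI in 324 cells, and immune-like cells had 1 of each in 280 cells. Against the floor of 3 counts over the group, Kcnj8 was at least 29.6-fold higher in pericyte-like than in Schwann-like cells. Droplets of the mixed library with under 50 UMIs, which carry free RNA, held 11.0 CPM of Kcnj8 and 37.0 CPM of Abcc9, above the Schwann-like, immune-like and lymphatic endothelial-like levels of that library. The Pln kind of that library, at 9.61 CPM of Kcnj8 and 28.8 of Abcc9, also lay below these values. Its Abcc9 level rests on 9 UMIs in 312105, where the lymphatic endothelial-like cells of that library held 0 in 828566. Free RNA is only a part of a cell's UMIs, and its part in the level of the Pln kind was not tested.

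Among the main groups, ordered by the mean over libraries, Kcnj8 fell from pericyte-like cells (135 CPM) through the Gpihbp1 kind (68.1), the Ano1 kind (39.4), fibroblast-like cells (29.7) and the Pln kind (10.5) to lymphatic endothelial-like cells (6.73). Among neighbours in this order, the ranges over libraries did not overlap between fibroblast-like cells and the Pln kind and overlapped at every other step. Abcc9 fell from pericyte-like cells (383) and the Ano1 kind (318), which overlapped, through the Gpihbp1 kind (163) and fibroblast-like cells (86.5), which overlapped too, and the Pln kind (44.5) to lymphatic endothelial-like cells (3.79). Between these groups the order differed in the places of the Ano1 and Gpihbp1 kinds. The subunits of the other KATP channel types were nearly absent, with 6 UMIs of Kcnj11 (Kir6.2) and 1 UMI of Abcc8 (SUR1) in all cells.

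The balance of the subunits within a class was read as the share of Abcc9 among the UMIs of both genes. UMIs at 3′ ends are not per length, and capture differs between genes, so only differences of this share between classes are read, not its size. It was 79.2, 75.8 and 64.9% in pericyte-like cells and 90.3, 88.6 and 87.1% in the Ano1 kind, higher in the latter in 3 of 3 libraries. The 95% Clopper-Pearson intervals were apart in PLV replicate 1 (72.8 to 84.6 against 86.6 to 93.3) and mixed (56.7 to 72.5 against 83.0 to 90.4) and overlapped in PLV replicate 2. The Pln kind gave 76.5, 89.3 and 75.0%, fibroblast-like cells 68.1, 81.4 and 77.6%, the Gpihbp1 kind 77.1, 71.2 and 64.7%, and the P2rx1 kind 77.6%. The Gpihbp1 kind thus lay close to pericyte-like cells in each library. Over these 5 groups and 3 libraries, ranks were permuted within libraries, a test added after the levels were seen. On the squared deviations of the rank sums, which have no direction, this exact permutation gave p = 0.236, where the smallest p it allows is 6.9e-05. The balance as a whole was thus not shown to differ between the groups.

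**Figure D4:**
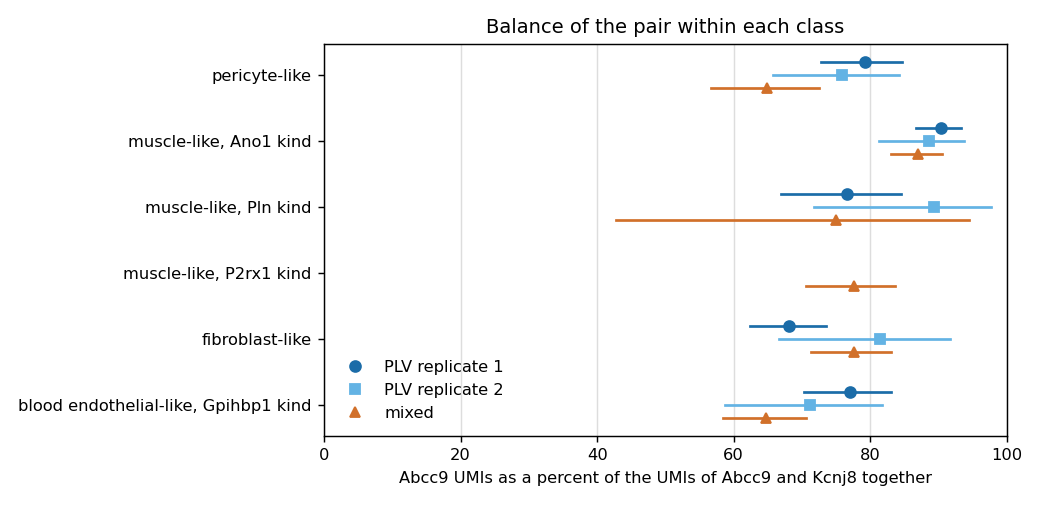
Share of Abcc9 among the UMIs of Abcc9 and Kcnj8 in percent, 1 point per library with its 95% Clopper-Pearson interval. The Ano1 kind lies between 87.1 and 90.3% and above pericyte-like cells (64.9 to 79.2%) in each of the 3 libraries.

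A channel needs both subunits in 1 cell, so joint detection was counted next. Cells of a library are not replicates, and these counts describe the cells. In pericyte-like cells, 57 of 222 had a Kcnj8 UMI, 101 had an Abcc9 UMI and 49 had both, where the product of the shares within strata of depth gives 33.6. Schwann-like cells, taken as background, had Kcnj8 in 0 and Abcc9 in 1 of 324 cells, at a median of 1946.5 UMIs a cell against 2718 in pericyte-like cells. By library both were found in 17 of 136, 11 of 27 and 21 of 59 cells. In the Ano1 kind the counts were 73, 280 and 58 of 396 cells, against a product of 55.2. The stratified odds ratio was 11.4 in pericyte-like cells and 1.36 in the Ano1 kind. In PLV replicate 1 and mixed, the pericyte-like class joins finer clusters with unlike levels of both genes, as given above. Joining such clusters can raise the count with both over the product, and its part in the ratio of 11.4 was not tested. By library the odds ratio in the Ano1 kind was 3.32, 2.57 and 0.997, so joint detection exceeded the product in the PLV libraries (19 against 17.5 and 11 against 9.66 cells) and equalled it in mixed (28 against 28.0). In the Ano1 kind an Abcc9 UMI was thus detected in 70.7% of cells and a Kcnj8 UMI in 18.4%. Capture differs between genes, so these shares do not show how many cells lacked the pore's transcript.

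The Pln kind had both in 10 of 383 cells (product 7.97), the P2rx1 kind in 19 of 74 (20.1) and fibroblast-like cells in 52 of 751 (41.5). In the Gpihbp1 kind 45 of its 46 cells with Kcnj8 (97.8%) also had Abcc9, against a product of 24.9, which repeats the split by pericyte markers above. Depth differed between classes, so cells were also thinned to 1500 UMIs, leaving out shallower ones. Both genes were then found in 10.8% of 157 pericyte-like cells (65 left out), 2.68% of 373 cells of the Ano1 kind (23 left out), 0.904% of 664 fibroblast-like cells (87 left out) and 2.71% of 221 cells of the Gpihbp1 kind (54 left out). In Schwann-like cells it was 0 of 209, which allows up to 1.44%, and the fibroblast-like share lies under that limit. The odds ratios after thinning were 2.82, 1.43, 1.36 and 8.54 in the order given, and pericyte-like cells had both in 17 against a product of 11.4. By library these were 6 against 2.96, 5 against 2.83 and, in mixed, 6 against 5.60, so after thinning mixed lay close to its product. Without thinning, both were found in 17 against 9.47, 11 against 8.79 and, in mixed, 21 against 15.3 cells, an excess in each library. After thinning to 1500 UMIs, the share in the Gpihbp1 kind was 1.43% in place of 2.71% with at most 10% mitochondrial UMIs.

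The mixed library was set against the PLV libraries within classes. In pericyte-like cells the differences were 0.34 for Kcnj8 (SE 0.52) and -0.60 for Abcc9 (SE 0.63), with an edgeR adjusted p = 0.984 for each, and 0.391% of genes were called higher and 1.55% lower. In muscle-like cells they were 0.80 for Kcnj8 (SE 0.29, edgeR adjusted p = 0.0504) and 0.33 for Abcc9 (SE 0.24, edgeR adjusted p = 0.369), with 8.07% higher and 7.31% lower. Within the Ano1 kind alone they were -0.08 and -0.44 (edgeR adjusted p = 0.935 and 0.388), with 3.84% higher and 1.8% lower. Neither gene was called, but only 1 library stands on the mixed side, its spread taken from the others, and for pericyte-like cells only 28% of simulated 4-fold changes were recovered, so these comparisons do not show that the libraries were alike. The Ano1 kind made up 140 of 427, 57 of 110 and 199 of 316 muscle-like cells. The P2rx1 kind, at 46.0 CPM of Kcnj8, made up 74 cells in mixed alone. Kcnj8 in the whole muscle-like class was at 24.9, 20.4 and 34.6 CPM, and the part of the mix of kinds in these levels was not tested.

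Across the named classes, each member's pattern was among the nearest to the other's. Likeness was Pearson's r across the 7 or 8 classes of a library, on log2 of CPM plus 10, averaged over the 3 libraries, for 12471 genes. Classes were not split into kinds, so the differences between kinds did not enter it. Classes of a library share its depth and its cells' free RNA, and no p is given. Abcc9 was the gene most like Kcnj8, with a mean r of 0.942 (0.916 to 0.962 by library), before Il15ra (0.942), Pth1r (0.940), Adamts4 (0.938) and Vstm4 (0.936). Kcnj8 was the fourth most like Abcc9, after Nfatc4 (0.956), Fam124a (0.949) and Rtn2 (0.945). The genes were thus close to each other in where they were high, as the levels by class show.

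Genes beside the pair on the chromosome did not share its step between the muscle kinds where they could be tested. The next gene on the Kcnj8 side, Ldhb (lactate dehydrogenase B), was lower in the Ano1 kind than in the Pln kind, at -3.03 (SE 0.34, edgeR adjusted p = 1.25e-10), the opposite direction to both members. Over lymphatic endothelial-like cells it was higher in pericyte-like cells, by 4.04 (edgeR adjusted p = 0.000105), as both members were. Golt1b, a Golgi transport gene, and Cmas, which activates sialic acid, differed by -0.07 and 0.07 between the muscle kinds (edgeR adjusted p = 0.906 for each). Of the 10 nearest genes, 5 on each side, Gys2, 5330439B14Rik and Gm7457 had 0 UMIs in all cells, and Spx and Sult6b2 had 1 each.

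Among the 14 other inward rectifier and KATP subunit genes, 1 was abundant enough to test in each comparison. Kcnj2 (Kir2.1) did not pass between pericyte-like and muscle-like cells (-0.64, edgeR adjusted p = 0.793). It was not tested between the muscle kinds, where it had 53 UMIs in the Pln kind (3.20 to 30.8 CPM by library) and 0 in the Ano1 kind. Kcnj12 (Kir2.2) had 97 UMIs in the Pln kind and 0 in the Ano1 kind, at least 33.7-fold higher in the former against the floor of 3 counts over the group. The muscle kind with little of the KATP pair was therefore the one that held this inward rectifier.

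Of 14 other potassium channel genes, 8 were tested between the muscle kinds, and 0 were higher and 5 lower in the Ano1 kind (median -1.58 on the log2 scale, all genes 0.00), against 16.1% of all genes higher and 16.8% lower. Kcnma1, the large-conductance calcium-activated channel, was not among these 5, at 96.6 CPM in the Ano1 kind and 70.7 CPM in the Pln kind. Kcna5, a voltage-gated channel of vascular muscle, had 216 UMIs in the Pln kind and 0 in the Ano1 kind, at least 75.1-fold higher in the Pln kind. Kcnk3, an acid-sensitive leak channel, was lower in the Ano1 kind by -2.63 (SE 0.26, edgeR adjusted p = 1.33e-12). Between pericyte-like and muscle-like cells 10 were tested, 0 were higher and 3 lower (median -1.39, all genes -0.07), against 5.47% and 6.96% of all genes. Kcnma1 had 2 UMIs in pericyte-like cells (2.04 CPM) and 453 in muscle-like cells (83.1 CPM), a ratio of 40.8 (95% counting interval 11.2 to 338). Its subunit Kcnmb1 was lower in pericyte-like cells by -3.96 (edgeR adjusted p = 0.000378). Against the Ano1 kind, 8 were tested, with 2 higher and 3 lower in pericyte-like cells (median 0.12, all genes 0.01), against 10.3% and 10.5% of all genes.

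Of 36 receptors, kinases and partners that act on KATP channels, 26 were tested between the muscle kinds, and 4 were higher and 11 lower in the Ano1 kind (median -0.42), against 16.1% of all genes higher and 16.8% lower. Adra2a, an alpha-2 adrenoceptor, was higher in the Ano1 kind by 4.06 (SE 0.42, edgeR adjusted p = 6.83e-12). The vasoconstrictor receptor genes Avpr1a (vasopressin) and Adra1a (alpha-1 adrenergic) and the relaxant VIP receptor gene Vipr2 had 85, 41 and 67 UMIs in the Pln kind and 1, 0 and 0 in the Ano1 kind. Between pericyte-like and muscle-like cells, 30 were tested, with 3 higher and 6 lower in pericyte-like cells (median -0.02), against 5.47% and 6.96% of all genes. Agtr1a, the angiotensin receptor gene, had 99 UMIs in pericyte-like cells and 2 in muscle-like cells, a ratio of 275 (74.2 to 2303). Prkar2b, a regulatory subunit of protein kinase A, was higher there by 2.88 and Adra2a by 2.30 (edgeR adjusted p = 1.79e-05 and 5.16e-05). Against the Ano1 kind, 26 were tested, with 10 higher and 6 lower (median 0.24), against 10.3% and 10.5% of all genes.

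All 11 enzymes of nucleotide supply were tested, and 0 were higher and 6 lower in pericyte-like than in muscle-like cells (median -0.96), against 5.47% and 6.96% of all genes. Ckb, the brain-type creatine kinase that regenerates ATP, was lower by -2.35 (edgeR adjusted p = 0.000136), Ak1, the adenylate kinase, by -1.97 (edgeR adjusted p = 0.0204), and Pkm, pyruvate kinase, by -1.43 (edgeR adjusted p = 0.000124). Between the muscle kinds 2 were higher and 7 lower in the Ano1 kind (median -0.56), against 16.1% and 16.8% of all genes. Pfkp, a phosphofructokinase, and Ak3, the mitochondrial adenylate kinase, were the higher ones, by 1.47 and 1.26 (edgeR adjusted p = 5.31e-08 and 1.86e-06). Against the Ano1 kind, 1 was higher and 5 lower in pericyte-like cells (median -0.43), against 10.3% and 10.5% of all genes. The higher one was Ldhb, by 1.41 (edgeR adjusted p = 0.0209).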

How the data were processed

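Gene by droplet matrices of whole-number UMI counts, 3 in all, were used as the authors deposited them; per the file headers they were made with Cell Ranger 6.1.2 (PLV) and 4 (mixed), and the submitters' processing notes name GRCm38 and Seurat. Values in CPM were computed from these counts. Droplets with at least 500 UMIs and 300 genes, at most 15% mitochondrial and 20% haemoglobin UMIs were kept, and doublets called by scrublet were left out. The limit on haemoglobin was chosen with the data in view. Cells of each library were clustered separately (scanpy 1.11.5, leidenalg 0.10.2, resolution 1, 2000 variable genes, 50 components, 15 neighbours), without Kcnj8, Abcc9 or the listed genes. A cluster was named for a type where 3 or more of its markers reached 2-fold over the remaining clusters and were present in at least 10% of its cells. It was left unnamed where its leading genes held more markers of another type, or where it was shallow and they held none of its own. Counts of at least 10 cells were summed per library and class and tested with edgeR 4.0.16 (R 4.3.3; quasi-likelihood, TMM, library as block, low-count filter, adjusted p under 0.05). For classes and kinds, p-values measure the spread of their differences over the 3 libraries that remains after the block. Mixed over PLV had no block, and its spread came from the 2 PLV libraries. DESeq2 1.42.0, other filters, resolutions and depths, and leaving out each library were the alternatives, and the comparisons of pericyte-like cells with single kinds were added after the data were seen. Lists covered inward rectifiers, channel regulators, other potassium channels and nucleotide enzymes. The text names the members, the list genes with the largest changes among the 4 largest per list, the 5 genes on either side and the 5 most alike. Members and lists were chosen with earlier results of these data known. Intervals and floors (3 counts) cover counting error only. On simulated data, 88% of 200 genes changed 4-fold were recovered for pericyte over muscle (10442 genes), 100% for the muscle kinds (7747 genes) and 28% for mixed over PLV pericyte-like cells (6906 genes). Droplets of the mixed library were not divided by vessel. Protein sequences were not used here.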

Additional observations from a re-analysis of the deposited data

How the results depend on the processing

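Of 312 alternative values of the members' differences, 289 kept their direction and their side of the threshold, 7 fell below it, 10 passed it and 6 turned. Abcc9 in pericyte-like over muscle-like cells passed without the filter on low counts (0.86, edgeR adjusted p = 0.00757), with both classes fitted alone (0.99, 0.0249) and without keratinocyte-marked cells (1.02, 0.0472), and ranged from 0.58 to 1.20 with 1 library left out. Kcnj8 in pericyte-like over blood endothelial-like cells ranged from 1.26 (without PLV replicate 2, edgeR adjusted p = 0.0537) to 1.79 with 1 library left out. Turned directions were Kcnj8 in muscle-like over fibroblast-like cells without PLV replicate 1 (0.16, and -0.86 without mixed), in fibroblast-like over blood endothelial-like cells without mixed (0.48, and -0.82 without PLV replicate 1), and Abcc9 in pericyte-like cells over the Ano1 kind without PLV replicate 2 (-0.061, and 0.46 without PLV replicate 1). For Kcnj8 in mixed over PLV pericyte-like cells it turned with doublets kept (-0.24), at resolution 0.5 (-0.36) and without PLV replicate 1 (-0.35, no test, and 0.73 without PLV replicate 2), and at those 2 clusterings the mixed Pln kind merged into pericyte-like clusters. Kcnj8 in mixed over PLV muscle-like cells passed with at least 1000 UMIs (0.83, edgeR adjusted p = 0.0371), doublets kept (0.92, 0.0154) and resolution 0.5 (0.93, 0.0217), and the cause was not tested. Abcc9 in muscle-like over fibroblast-like cells passed without the filter (0.79, edgeR adjusted p = 0.00712), and Kcnj8 in muscle-like over blood endothelial-like cells with both classes alone (-0.57, 0.0459). Cells with both genes in pericyte-like cells, the Ano1 kind, fibroblast-like cells and the Gpihbp1 kind were 22.1, 14.6, 6.92 and 16.4% not thinned and 21.8, 6.50, 3.04 and 6.25% at 3000 UMIs. Thinned to 1500 UMIs, the Gpihbp1 kind gave 1.43% with at most 10% mitochondrial UMIs, in place of 2.71%. The excess over the product turned for fibroblast-like cells with at least 1000 UMIs (-0.009 cells) and for the Ano1 kind with doublets kept (-0.835). Called genes for pericyte-like over muscle-like cells were 1298, and 531 to 1810 under alternatives. For pericyte-like over fibroblast-like and blood endothelial-like cells they were 2539 (1647 to 2998) and 2469 (1645 to 2905), for the Ano1 over the Pln kind 2546 (1385 to 2673), and for pericyte-like cells over these kinds 1614 (1026 to 1553) and 1974 (1188 to 1942). For mixed over PLV they were 134 in pericyte-like cells (0 with doublets kept by edgeR, with 491 at an unadjusted p under 0.05, 1 by DESeq2 and 242 at resolution 0.5), 1662 in muscle-like cells (212 by DESeq2) and 492 in the Ano1 kind (41 by DESeq2). No paired analysis of PLV and mixed was possible, because the labels link no PLV library to the mixed one. Depth limits Kcnj8 most, with 614 UMIs in all cells.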

Other observations

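Cells in clusters left unnamed, by too few markers or by leading genes of another type, entered no comparison. In the mixed library 37 such cells, led by Il7r and Cd52, held 1 Kcnj8 UMI and 11 Abcc9 UMIs, an Abcc9 level of 177 CPM (95% Poisson interval 88.5 to 317), where the immune-like cells of that library held 0. These cells also held muscle transcripts, with 4 of 9 muscle markers above the other clusters, and Rgs5 at 403 CPM. In PLV replicate 2, 69 such cells with a median of 958 UMIs held 3 Kcnj8 UMIs and 1 Abcc9 UMI. In PLV replicate 1, 9 such cells led by the platelet genes Nrgn, Pf4 and Ppbp held 0 of either.

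Near-empty droplets of the mixed library, 185412 droplets with under 50 UMIs and 1000645 UMIs in all, held 11 Kcnj8 UMIs and 37 Abcc9 UMIs. Perineurial-like cells, 15 in PLV replicate 1 and 10 in mixed, held 0 UMIs of both genes.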
